A study of Homo sapiens with 6 samples.

Results

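The genes described here build and fire replication origins, move the replication fork and supply it with deoxynucleotides. They were 49 named genes, taken by symbol from HG-U133 Plus 2.0 arrays through probe sets that name a single gene, with the brightest probe set standing for each gene. All 49 had such a probe set and passed the filter on low signal, out of 19775 genes with such a probe set and 11853 tested. The study hybridised total RNA from cells labelled HepG2, a human liver tumour line, to 6 arrays. The cells on 3 arrays had received a negative control siRNA and those on the other 3 an siRNA against RNF43, both with a lipid reagent, 48 h before RNA was taken. No other treatment or genetic change is named for either group. The labels call the arrays of a group biological replicates and do not mention separate cultures. The p-values therefore reflect only array-to-array spread, which may be technical.

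Before a cell copies its DNA, the origin recognition complex marks the sites where copying can start, and CDC6 and CDT1 load rings of the MCM helicase there. In S phase kinases recruit CDC45 and the GINS proteins, which turn the ring into an active helicase. Polymerase alpha with primase lays down primers, the RFC complex loads the PCNA clamp, and polymerases delta and epsilon extend the strands while RPA covers exposed single strands. In dividing cells E2F transcription factors are known to switch many of these genes on before S phase.

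The targeted gene and the cell identity both went against the labels. RNF43, a membrane ubiquitin ligase that restrains Wnt signalling, read 7.65, 7.79 and 7.45 (log2 signal) on control arrays 1, 2 and 3, and 8.19, 8.22 and 8.41 on the arrays labelled RNF43 siRNA. It was therefore higher, not lower, on every array labelled with its siRNA, by 0.64 on the log2 scale (SE 0.14, limma adjusted p = 0.0098, exact two-sided permutation p = 0.1, the lowest possible for 3 against 3). RNF43 had 1 usable probe set. Omitting array 3 of each group, the difference was 0.48 (adjusted p = 0.0537). The comparison is thus between arrays by their labels, with no measured loss of RNF43 mRNA. Were the groups exchanged, every direction given here would turn: 15 genes would be lower and 2 higher, MCM7 at a ratio between 0.602 and 0.752 and PRIM1 between 1.29 and 1.63 (95% intervals). Of 12 markers of HepG2 cells listed, 11 had a usable probe set and 3 passed the filter, namely AFP, KRT8 and KRT18. The liver genes ALB, APOA1, APOB, TTR, FGB, SERPINA1 and FOXA2, and GPC3 of liver tumours, did not pass it and read 1.73 to 6.03, around or below the filter value of 5.83. By contrast 6 of 10 fibroblast and stellate cell markers passed, with LUM at 13.07 to 13.43 and COL1A1 at 10.27 to 10.73. The others of that list, COL1A2, PDGFRA, PDGFRB and THY1, did not pass and read 2.35 to 6.16. The linear signals of the 10 fibroblast probe sets summed to 15966 to 16086 on control arrays and 12494 to 13628 on the others. Of the 6 fibroblast markers tested, 4 fell, where 11.1% of all genes tested fell. The sums over the 11 probe sets of the HepG2 list were 17095 to 18012 and 22296 to 28067. KRT8 and KRT18 (means 12.73 and 13.75) make up most of the HepG2 sum, and LUM (13.26) most of the fibroblast sum. The sums therefore say little about the other markers. In the HepG2 list the keratins KRT8 (0.72, adjusted p = 0.000485) and KRT18 (0.41, 0.00413) rose, while AFP had a difference of -0.60 that did not pass (0.0877). LUM had a difference of -0.18 that did not pass (0.0926). PECAM1 was the 1 endothelial marker of 6 above the filter, and of 5 leukocyte markers with a probe set 0 were. Whether these shifts have a part in the values of the replication genes was not tested.

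By sign alone, 41 of the 49 differences were positive and 8 negative, most of them small. Over all 11853 genes tested, 5870 were positive and 5983 negative. Of the 49, 15 rose (30.6%) and 2 fell (4.08%), where 11.5% of all 11853 genes tested rose and 11.1% fell (limma, adjusted p under 0.05). The 15 that rose were CDT1, GMNN, MCM3, MCM5, MCM7, CDC45, GINS1, GINS2, RFC3, POLA1, POLD3, POLE, RRM2, TYMS and TK1, and the 2 that fell were PRIM1 and POLD4. The changes were small, between 1.15-fold and 1.49-fold in size. The median over the 49 was 0.19 on the log2 scale, a ratio of 1.14, and the ratio at the median of all genes tested was 0.998. All 3 values labelled RNF43 siRNA lay above all 3 control values for 24 of the 49 and below them for 4, against 19.1% and 19.8% of all genes tested. In bulk RNA a larger share of cells in S phase and more transcript per cell cannot be told apart. The count of risen members ranged from 10, without control array 2 or array 2 labelled RNF43 siRNA, to 16, while 2 members fell in every fit without 1 array. GMNN, MCM7, CDC45, GINS1 and RRM2 kept their calls as risen, and PRIM1 and POLD4 theirs as fallen, in every alternative that tested them.

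**Figure D1:**
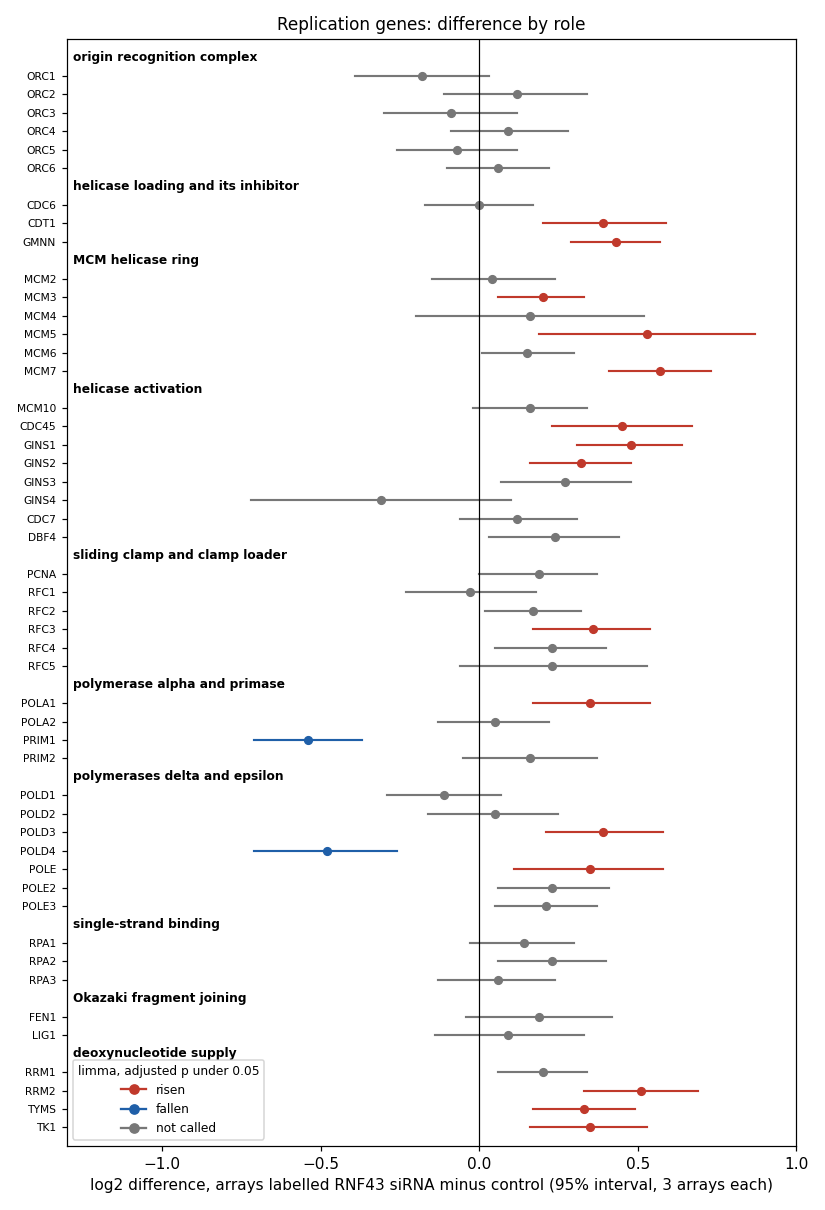
Log2 difference (arrays labelled RNF43 siRNA minus control arrays, horizontal axis) for each of the 49 genes, grouped by role, with its 95% interval from limma and 3 arrays per group. Red marks the 15 that rose, blue the 2 that fell and grey the 32 not called; 41 of the 49 points lie to the right of 0, and the origin recognition complex lies around 0.

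The stretches just upstream of the start sites are shown for 5 members, because they carry the short words that members often share and because they cover the steepest rise (MCM7), a licensing factor (CDT1), a risen and a fallen gene of one complex (POLA1 and PRIM1) and the other fallen gene (POLD4). Each is the 250 bases before the first listed RefSeq start (GRCh38.p14), on the gene's own strand, 5′ to 3′. Capitals mark the words searched, which were TTTCCCGC, TTTGGCGC, TTTCGCGC and TTTGCCGC, of a form bound by E2F factors, and CCAAT, the form bound by NF-Y, on either strand. Other variants of the E2F form were not searched, so a window without a marked word may still hold one. The windows lie at chr7:100101398-100101647 on the minus strand for MCM7, chr16:88803539-88803788 on the plus strand for CDT1, chrX:24693668-24693917 on the plus strand for POLA1, chr12:56752324-56752573 on the minus strand for PRIM1 and chr11:67353597-67353846 on the minus strand for POLD4.
MCM7: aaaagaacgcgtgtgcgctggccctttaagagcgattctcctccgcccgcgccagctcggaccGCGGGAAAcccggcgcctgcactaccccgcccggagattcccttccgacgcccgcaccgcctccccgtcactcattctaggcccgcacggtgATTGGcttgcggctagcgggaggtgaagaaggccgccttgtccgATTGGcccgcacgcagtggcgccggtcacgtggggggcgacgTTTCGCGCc
CDT1: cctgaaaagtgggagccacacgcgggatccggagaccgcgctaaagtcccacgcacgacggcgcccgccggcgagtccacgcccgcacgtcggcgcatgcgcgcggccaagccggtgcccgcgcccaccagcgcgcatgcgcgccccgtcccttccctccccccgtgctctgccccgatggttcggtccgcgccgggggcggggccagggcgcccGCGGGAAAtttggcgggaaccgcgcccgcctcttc
POLA1: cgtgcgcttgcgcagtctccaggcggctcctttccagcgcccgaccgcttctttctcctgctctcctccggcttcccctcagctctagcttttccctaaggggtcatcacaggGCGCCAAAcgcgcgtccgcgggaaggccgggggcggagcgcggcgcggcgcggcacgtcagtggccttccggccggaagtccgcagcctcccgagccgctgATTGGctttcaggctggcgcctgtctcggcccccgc
PRIM1: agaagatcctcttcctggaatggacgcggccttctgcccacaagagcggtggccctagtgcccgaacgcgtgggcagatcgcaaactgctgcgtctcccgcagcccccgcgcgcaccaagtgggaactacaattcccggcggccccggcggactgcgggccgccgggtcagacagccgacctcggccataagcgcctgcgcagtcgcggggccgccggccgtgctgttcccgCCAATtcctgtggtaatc
POLD4: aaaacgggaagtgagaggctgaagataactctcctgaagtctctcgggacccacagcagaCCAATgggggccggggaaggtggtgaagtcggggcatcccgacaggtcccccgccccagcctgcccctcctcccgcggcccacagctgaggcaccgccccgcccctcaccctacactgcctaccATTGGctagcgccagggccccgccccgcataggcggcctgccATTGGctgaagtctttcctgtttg
The MCM7 window holds an E2F-type word that begins at position -187 relative to the start and another at -9, with CCAAT words at -95 and -51. The CDT1 window has its E2F-type word at -35, and POLA1 has one at -137 and a CCAAT word at -36. PRIM1 shows only a CCAAT word, at -18, and POLD4 shows 3 of them, at -190, -66 and -24.

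Across the members, 43 of the 49 had an entry in the promoter table, with 58 starts between them. Searching 250 bases before to 50 after each start, an E2F-type word was found for 20 of these 43 genes (46.5%), and for 6.71% of the 9686 tested genes with an entry. Among all 27305 genes of the table the share was 3.99%. The word was present for 10 of the 13 risen members with an entry (76.9%), for 10 of the 28 that were not called (35.7%) and for 0 of the 2 that fell. CCAAT is shorter and common, found for 58.1% of the 43, 43.4% of the tested genes and 39.7% of the table. Matches that overlap on opposite strands were each counted. A match describes these letters only, and was not tested as a binding site.

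**Figure D2:**
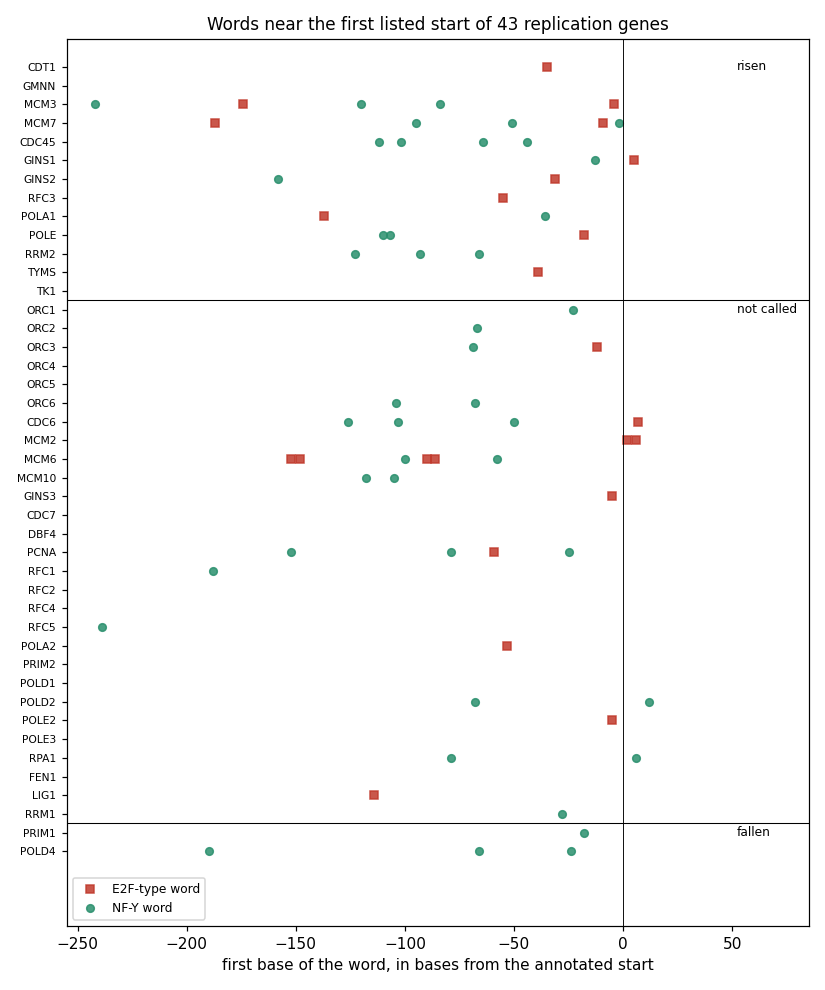
Position of each E2F-type word (red squares) and CCAAT word (green circles) relative to the first listed start site of 43 replication genes, in bases, with genes in rows grouped by call. At this first start, 9 of the 13 risen genes, 9 of the 28 not called and 0 of the 2 fallen hold an E2F-type word.

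Origin recognition complex genes stood near 0. Of ORC1 to ORC6, the 6 subunits that bind origins, 0 were called by limma, against 22.6% of all genes tested. Against 34.8% of all genes, 0 of the 6 had an unadjusted p under 0.05 in limma. Their log2 differences ran from -0.18 for ORC1 to 0.12 for ORC2, with 3 positive and 3 negative. ORC1, the subunit whose level is known to follow the cell cycle, read 9.60, 9.78 and 9.53 on control arrays and 9.45, 9.46 and 9.46 on arrays labelled RNF43 siRNA. Its groups did not overlap, yet the difference did not pass (adjusted p = 0.204), and its 95% interval ran from -0.39 to 0.03. No alternative that was run called any of the 6.

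Among the factors that load the helicase, CDT1 and its inhibitor rose together while the loading ATPase CDC6 was level. GMNN encodes geminin, which holds CDT1 back until the next cycle. It read 12.69, 12.72 and 12.84 on control arrays and 13.17, 13.20 and 13.17 on the others. The labelled arrays were all above the controls and had an SD of 0.02. GMNN rose 1.34-fold (log2 difference 0.43, SE 0.06, adjusted p = 0.00102). CDT1 read 10.75, 10.50 and 10.52 against 10.91, 11.06 and 10.98, which was 1.31-fold higher with no overlap (0.39, SE 0.09, adjusted p = 0.00917). The CDT1 reading comes from a probe set with an _x_at name, which flags possible binding to related transcripts. Its other probe set had a difference of 0.19 that did not pass, and the mean of both gave 0.29 (adjusted p = 0.0712). CDC6 read 10.58, 10.53 and 10.45 against 10.59, 10.51 and 10.46, a log2 difference of 0.00 with an interval from -0.17 to 0.17.

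The MCM ring, made of MCM2 to MCM7, had 6 positive differences, of which 3 passed, where 11.5% of all genes tested rose. MCM7 showed the largest rise of all 49 genes. Its log2 signals were 11.66, 11.85 and 11.86 on control arrays and 12.36, 12.37 and 12.35 on arrays labelled RNF43 siRNA. The groups did not overlap, and the labelled arrays had an SD of 0.01. This was a 1.49-fold rise with a 95% interval of 1.33 to 1.66 (log2 difference 0.57, SE 0.07, adjusted p = 0.00038). The second MCM7 probe set also rose, by 0.37 (adjusted p = 0.00335 in a fit over all probe sets).
MCM5 was noisier, at 11.33, 11.04 and 10.86 against 11.78, 11.79 and 11.25, and array 3 labelled RNF43 siRNA lay among the controls. The difference of 0.53 (SE 0.15) passed at adjusted p = 0.031 and no longer passed without control array 2 (0.0836) or 3 (0.0765), without array 1 (0.114) or 2 (0.128) labelled RNF43 siRNA, or with no intensity trend (0.106). The other MCM5 probe set read 9.32, 9.16 and 9.02 against 9.72, 9.75 and 9.90, with no overlap, and rose by 0.62 (adjusted p = 0.00517 over all probe sets). MCM3 read 12.34, 12.29 and 12.35 against 12.55, 12.57 and 12.46, a 1.15-fold rise at the edge of the threshold (0.20, SE 0.06, adjusted p = 0.0475). That call was lost without any 1 control array (0.0623 to 0.161), without array 1 (0.108) or 2 (0.15) labelled RNF43 siRNA, with arrays centred on their medians (0.0534), with no filter (0.0741) and with no trend (0.106).

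MCM2, MCM4 and MCM6 were not called in the ring. MCM6 read 12.58, 12.54 and 12.68 against 12.79, 12.74 and 12.74, with no overlap and a difference of 0.15 (adjusted p = 0.113). A much dimmer MCM6 probe set had overlapping groups and a difference of 0.44 that did not pass (adjusted p = 0.233 over all probe sets). MCM2 had a difference of 0.04 with an interval from -0.15 to 0.24, and its groups overlapped. The brightest MCM4 probe set had a difference of 0.16 with an interval from -0.20 to 0.52. A dimmer MCM4 probe set, at 10.07, 10.08 and 9.96 against 10.35, 10.62 and 10.51, rose by 0.46 (adjusted p = 0.0104 over all probe sets), and the other 2 tested MCM4 probe sets did not pass.

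CDC45 and the GINS proteins, which complete the active helicase, were mostly higher. CDC45 read 8.96, 8.93 and 8.95 on control arrays and 9.41, 9.53 and 9.27 on arrays labelled RNF43 siRNA. The controls were nearly equal and every labelled array lay above them, a 1.37-fold rise (log2 difference 0.45, SE 0.10, adjusted p = 0.00851). GINS1 read 10.29, 10.22 and 10.31 against 10.73, 10.83 and 10.70, or 1.39-fold higher with no overlap (0.48, SE 0.08, adjusted p = 0.00157). GINS2 read 11.32, 11.23 and 11.36 against 11.68, 11.65 and 11.53, or 1.25-fold higher with no overlap (0.32, SE 0.07, adjusted p = 0.0108). The GINS2 call was lost without control array 2 (adjusted p = 0.0518). Without probe sets ending in _x_at or _s_at GINS2 was read by a dimmer probe set, with a difference of 0.60 that did not pass (0.108). Averaging the 3 GINS2 probe sets gave 0.84 (0.00437), but 1 of them lay below the filter and had a difference of 1.59. GINS3 read 9.63, 9.73 and 9.50 against 9.81, 9.94 and 9.91, with no overlap and a difference of 0.27 that just missed (adjusted p = 0.0559). GINS4 differed in sign on its brightest probe set, at 7.31, 7.16 and 7.55 against 6.91, 7.03 and 7.16. This difference of -0.31 did not pass (adjusted p = 0.273), and a second GINS4 probe set had a difference of 0.36 that did not pass either (0.46).

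The firing factors showed smaller differences. MCM10, which helps to open the helicase, read 10.06, 10.06 and 10.23 against 10.23, 10.29 and 10.31, a difference of 0.16 (adjusted p = 0.194). DBF4, the activator of the CDC7 kinase, read 11.74, 11.83 and 11.93 against 11.99, 11.96 and 12.26. Its groups did not overlap, and the difference of 0.24 did not pass (adjusted p = 0.0918). The kinase gene CDC7 had a difference of 0.12 with an interval from -0.06 to 0.31.

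Of the sliding clamp PCNA and the 5 subunits of its loader, only RFC3 passed on its brightest probe set. That is 1 of 6 risen (16.7%), near the 11.5% of all genes tested that rose. RFC3 read 11.10, 10.99 and 11.25 on control arrays and 11.39, 11.52 and 11.49 on arrays labelled RNF43 siRNA, without overlap. The rise was 1.28-fold (0.36, SE 0.08, adjusted p = 0.0113) and no longer passed without control array 2 (0.0524) or without array 2 labelled RNF43 siRNA (0.053). A second RFC3 probe set rose by 0.28 (adjusted p = 0.0478 over all probe sets), the remaining, much dimmer one had a difference of -0.25 that did not pass (0.613), and the mean of the 3 gave 0.13 (0.399).

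PCNA itself read 13.14, 13.06 and 13.31 against 13.28, 13.30 and 13.49. The groups overlapped and the difference of 0.19 did not pass (adjusted p = 0.136). RFC2 (0.17, adjusted p = 0.103) and RFC4 (0.23, adjusted p = 0.0667) did not overlap between groups and did not pass. RFC5 depended on the probe set. Its brightest read 11.11, 11.02 and 11.41 against 11.27, 11.26 and 11.71, with overlap and a difference of 0.23 (adjusted p = 0.249), while another read 10.39, 10.48 and 10.94 against 11.25, 11.21 and 11.50. That second probe set did not overlap between groups and rose by 0.72, a ratio of 1.64 (adjusted p = 0.0101 over all probe sets), and the remaining one had a difference of 0.23 that did not pass. RFC1, the large subunit, had a difference of -0.03 with an interval from -0.23 to 0.18.

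Of the 4 polymerase alpha and primase genes, 1 rose, 1 fell and 2 were not called. Of all genes tested, 11.5% rose and 11.1% fell. PRIM1, the catalytic primase subunit that makes the RNA primer, read 10.92, 10.97 and 11.09 on control arrays and 10.47, 10.43 and 10.46 on arrays labelled RNF43 siRNA. Every labelled array lay below every control, a 1.45-fold fall with a 95% interval of 1.29 to 1.63 (log2 difference -0.54, SE 0.08, adjusted p = 0.000703). Only 1 probe set reads PRIM1. POLA1, the catalytic subunit of the polymerase, read 10.61, 10.72 and 10.53 against 10.91, 11.09 and 10.93, a 1.28-fold rise with no overlap (0.35, SE 0.08, adjusted p = 0.0119). Without array 2 labelled RNF43 siRNA the POLA1 difference was 0.30 and no longer passed (adjusted p = 0.059). The POLA1 and PRIM1 differences lay 0.89 apart on the log2 scale, given as a description, since the pair was picked for it. The accessory subunit POLA2 had a difference of 0.05 and the primase partner PRIM2 one of 0.16 (adjusted p = 0.264). A further 4 probe sets name PRIM2 together with PRIM2BP and were not used.

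Of the 4 polymerase delta genes, 1 rose, 1 fell and 2 were not called, against 11.5% risen and 11.1% fallen among all genes tested. POLD3, an accessory subunit, read 9.66, 9.63 and 9.70 on control arrays and 10.06, 10.15 and 9.96 on arrays labelled RNF43 siRNA. The controls were tight and there was no overlap, a 1.31-fold rise (0.39, SE 0.08, adjusted p = 0.00785). The mean of both POLD3 probe sets gave 0.36 and did not pass (adjusted p = 0.239). POLD4, the smallest subunit, read 9.30, 9.21 and 9.44 against 8.92, 8.77 and 8.81, a fall to a ratio of 0.715 (95% interval 0.611 to 0.837) with no overlap (log2 difference -0.48, SE 0.10, adjusted p = 0.00717). Only 1 probe set reads POLD4. The POLD3 and POLD4 differences lay 0.88 apart, again as a description of a pair picked for it. The catalytic subunit POLD1 (-0.11, interval -0.29 to 0.07) and POLD2 (0.05, interval -0.16 to 0.25) had groups that overlapped.

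The 3 polymerase epsilon genes among the 49 had positive differences close to the threshold. POLE, the catalytic subunit, read 9.26, 9.12 and 9.02 against 9.39, 9.62 and 9.42, a 1.27-fold rise with no overlap (0.35, SE 0.11, adjusted p = 0.0373). The POLE call was lost in 9 of 17 alternatives. They were the fits without control array 2 (0.0974) or 3 (0.0928), without array 1 (0.0541), 2 (0.149) or 3 (0.0512) labelled RNF43 siRNA, without both arrays numbered 3 (0.0726), with no filter (0.0576), with no trend (0.0634) and with probe sets averaged per gene (0.0531), although POLE has a single probe set. POLE2 read 9.93, 9.87 and 9.78 against 10.10, 10.09 and 10.09, which did not overlap (0.23, adjusted p = 0.0603). POLE3 read 11.44, 11.47 and 11.55 against 11.59, 11.78 and 11.71, again without overlap (0.21, adjusted p = 0.0663). The remaining epsilon subunit gene, POLE4, is counted below among the fork companions and was named after its values were seen. It had a difference of 0.20 at adjusted p = 0.049, a call lost in 11 of 18 alternatives, among them every fit without 1 array (0.0617 to 0.148).

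The single-strand binding and fragment-joining genes were not called. Among all genes tested, 22.6% were called and 34.8% had an unadjusted p under 0.05 in limma. Of RPA1, RPA2 and RPA3, 0 passed in limma, and 1 had an unadjusted p under 0.05. This was RPA2, at 11.20, 11.35 and 11.40 against 11.49, 11.59 and 11.55, with no overlap and a difference of 0.23 (adjusted p = 0.0532). RPA1 (0.14) and RPA3 (0.06) overlapped between groups. Neither FEN1, the flap nuclease (0.19, interval -0.04 to 0.42), nor LIG1, the ligase that seals Okazaki fragments (0.09, interval -0.14 to 0.33), passed, and 0 of these 2 had an unadjusted p under 0.05.

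The 4 deoxynucleotide genes were all higher on every array labelled RNF43 siRNA than on any control, as were 19.1% of all genes tested. Of the 4, 3 passed, where 11.5% of all genes tested rose. RRM2, the small subunit of ribonucleotide reductase, which makes deoxynucleotides, read 12.37, 12.39 and 12.67 on control arrays and 12.98, 12.95 and 13.03 on the others. It rose 1.42-fold (0.51, SE 0.08, adjusted p = 0.00185), and its second probe set rose by 0.41 (adjusted p = 0.0053 over all probe sets). The large subunit gene RRM1 read 13.62, 13.66 and 13.79 against 13.84, 13.89 and 13.93, a difference of 0.20 just outside the threshold (adjusted p = 0.0506). Thymidylate synthase, TYMS, read 13.40, 13.36 and 13.50 against 13.83, 13.62 and 13.80, or 1.26-fold higher (0.33, SE 0.07, adjusted p = 0.00872). A second TYMS probe set rose by 0.46 (adjusted p = 0.00179 over all probe sets), and averaging them with the remaining one, which lay below the filter, gave 0.58 and did not pass (0.0988). TK1, the thymidine salvage kinase, read 9.84, 9.88 and 9.87 against 10.22, 10.10 and 10.31, or 1.27-fold higher (0.35, SE 0.08, adjusted p = 0.0138). The other TK1 probe set had overlapping groups and a difference of 0.19 that did not pass (adjusted p = 0.379 over all probe sets). The TK1 call was lost without control array 1 (adjusted p = 0.0517) and with its probe sets averaged (0.102).

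**Figure D3:**
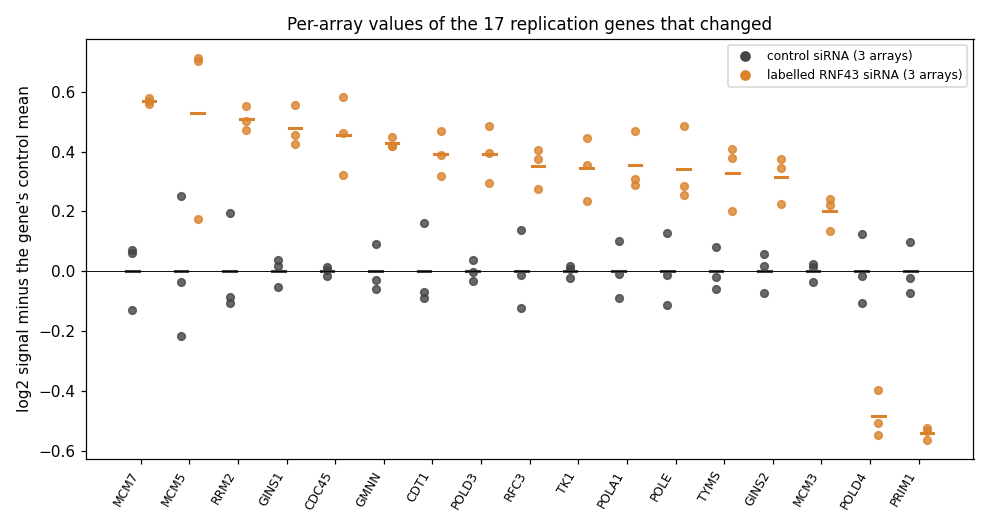
Log2 signal of each array minus the gene's control mean (vertical axis) for the 17 replication genes that changed, with control arrays in grey, arrays labelled RNF43 siRNA in orange and a bar at each group mean (3 arrays). The groups overlap for 1 of the 17, MCM5, and PRIM1 and POLD4 are the 2 below 0.

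Other probe sets gave a check on these readings. Beyond the brightest, 25 members had 39 further probe sets, 33 of them above the filter, and 24 members rested on 1 probe set alone. In the fit over all 27306 probe sets above the filter, an alternative added after the data were seen, 7.9% of probe sets rose and 7.55% fell. Of the 33, 7 rose and 0 fell, where the limma fit left 26 uncalled. The 7 belonged to MCM4, MCM5, MCM7, RFC3, RFC5, RRM2 and TYMS. For the 9 risen members that had another tested probe set, 9 of 10 such probe sets had a positive difference and 5 rose. In the same larger fit 12 of the 49 brightest probe sets rose and 2 fell, and those of MCM3 (adjusted p = 0.0612), MCM5 (0.0555) and POLE (0.062) no longer passed. RPA1 differed between probe sets, with a difference of 0.14 on its brightest probe set, -0.04 on the second and 0.86 on the remaining dim one, none of which passed.

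**Figure D4:**
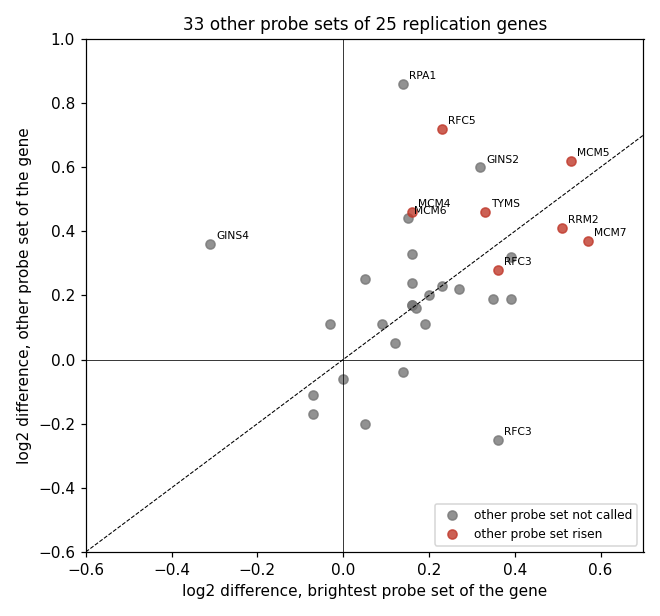
Log2 difference (arrays labelled RNF43 siRNA minus control) of each of 33 other probe sets (vertical axis) against that of the brightest probe set of the same gene (horizontal axis), for 25 replication genes; the dashed line marks equality. Red marks the 7 that rose in the fit over all probe sets. RPA1, GINS4, RFC5, MCM4, MCM6 and GINS2 each have a probe set well above the line, with GINS4 at -0.31 and 0.36. A dim RFC3 probe set lies below the line.

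Genes that work beside the members were counted by role, and differences between the lists were not tested. The lists were chosen with earlier results of these data known, and 111 of their 120 genes were tested. Over all genes tested, 11.5% rose, 11.1% fell and 34.8% had an unadjusted p under 0.05. Among factors that travel with or process the fork, 9 of 29 rose (31%) and 0 fell, where 12 had an unadjusted p under 0.05 in limma against 34.8% of all genes (median log2 difference 0.11). They included the topoisomerase TOP2A (0.55, adjusted p = 0.000809), the MCM-binding protein MCMBP (0.43, 0.00268), and the nucleases EXO1 (0.46, 0.00519) and DNA2 (0.49, 0.00695). With their probe sets averaged TOP2A (0.33, adjusted p = 0.141) and MCMBP (0.29, 0.182) no longer passed.

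Among regulators of licensing and S phase entry, 9 of 23 rose (39.1%, against 11.5% of all genes) and 0 fell, with 10 at an unadjusted p under 0.05, against 34.8% of all genes (median 0.17). CDK2, the S phase kinase (1.41, adjusted p = 2e-06), and its partner CCNE2 (1.42, 4.25e-05) rose 2.65-fold and 2.67-fold, beyond any member. TFDP1, the dimer partner of E2F proteins, rose by 0.61 (0.00018). CUL4B, a scaffold of the ubiquitin ligase that destroys CDT1, rose by 1.34 (0.000308), or by 0.60 with its probe sets averaged.

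Chromatin assembly genes showed 3 of 14 risen (21.4%) and 1 fallen (7.14%), against 11.5% and 11.1% of all genes. ASF1A, a histone chaperone, rose by 1.21 (adjusted p = 1.74e-05), SLBP, which binds histone mRNA, by 1.11 (7.41e-05), and UHRF1, which reads newly copied DNA, by 0.35 (0.00975). TLK2, a kinase of histone chaperones, had the fall, with a difference of -0.51 (0.00779) that was -0.90 with its probe sets averaged and no longer passed without probe sets ending in _x_at or _s_at (0.0769).

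The rest of nucleotide metabolism had counts near the background. Of 30 tested genes, 2 rose (6.67%) and 4 fell (13.3%), against 11.5% and 11.1% of all genes tested, with a median ratio of 1. PRPS2, which makes the ribose precursor, rose by 0.45 (adjusted p = 0.00154). SAMHD1, which breaks down deoxynucleotides, fell by 0.44 (0.00669), CAD of pyrimidine synthesis by 0.34 (0.0231) and IMPDH2 of guanine nucleotide synthesis by 0.24 (0.0276). The SAMHD1 call was lost without control array 1 (0.0873) or 2 (0.131), without array 1 (0.332) or 3 (0.232) labelled RNF43 siRNA, and with its probe sets averaged (0.0983). The CAD call was lost without control array 1 (0.0918) or 2 (0.0939), without array 2 (0.0764) or 3 (0.0556) labelled RNF43 siRNA, with median centring (0.0639) and with its probe sets averaged (0.386). The IMPDH2 call was lost without control array 1 (0.122) or 3 (0.0509), without array 2 (0.0991) or 3 (0.0556) labelled RNF43 siRNA, with median centring (0.0986) and with no trend (0.0776). Other DNA polymerases and end-processing genes had 2 of 15 risen (13.3%), the translesion polymerase genes REV3L (0.43, 0.0138) and MAD2L2 (0.31, 0.0163). REV3L no longer passed without array 2 labelled RNF43 siRNA (0.0636) or with its probe sets averaged (0.21, 0.362), and its difference was -0.02 without probe sets ending in _x_at or _s_at. MAD2L2 no longer passed without control array 2 (0.0572) or array 1 labelled RNF43 siRNA (0.0671).

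**Figure D5:**
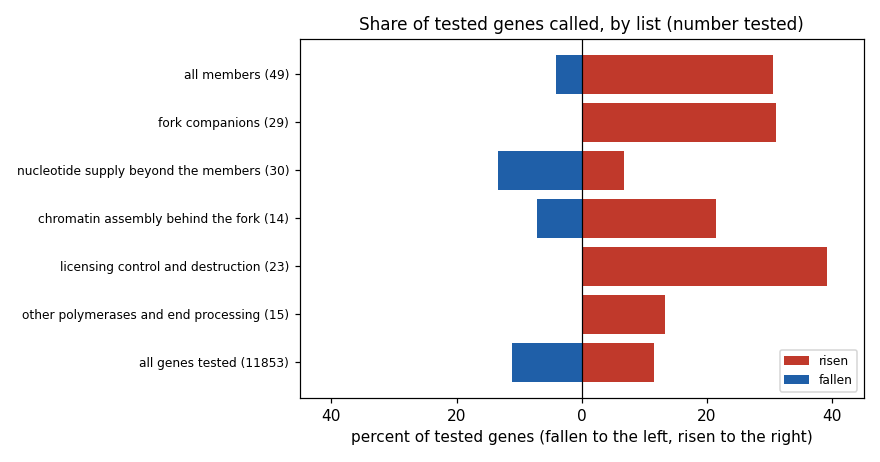
Percent of tested genes that rose (red, to the right) and fell (blue, to the left) among the 49 replication genes, the 5 neighbouring lists and all 11853 genes tested, with the number tested in brackets (limma, adjusted p under 0.05). The replication genes (30.6% risen), the fork companions (31%) and the licensing regulators (39.1%) have longer red bars than all genes (11.5%).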

How the data were processed

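Expression was measured on 6 arrays, 3 per group, assigned by title. The deposited log2 signals were made with MAS5, per the submitters' processing notes, which subtracts mismatch signal and scales arrays. Its version is not given in the sources used here. Base 2 was inferred from the numbers, since linear means trimmed at both ends were 497.03 to 497.23 on all arrays. Medians were 5.89 to 6.02, 391 to 628 values per array were exactly 0, and no member value was. Dim probe sets are noisy after mismatch subtraction, scaling hides a shift of all transcripts, and the number of arrays limits the precision.

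Probe sets were named from the platform annotation, updated through gene IDs to RefSeq symbols. Of 54613 probe sets, 41091 named 1 gene, 1801 several and 11721 none here. Each gene was represented by its brightest probe set and tested when this ranked among the upper 50% of all probe sets (mean above 5.83). Groups were compared using limma 3.58.1 under R 4.3.3 (lmFit, eBayes with an intensity trend, two-sided, Benjamini-Hochberg over all 11853 genes, threshold 0.05). Values are means or single arrays, SE is of the log2 difference, and signals of different probe sets were compared only to pick the brightest and to describe dim ones. The steps were tested on simulated data. The members and lists were chosen with earlier results of these data known. Values are given for every called member, and for uncalled ones whose groups do not overlap or whose probe sets disagree, with up to 4 called genes of smallest p per neighbouring list; other values named are from members or markers. Promoters are RefSeq, GRCh38.p14, matched by gene ID. Alternatives changed the scaling, the signal offset, the filter, the variance model, the weights of arrays, probe set choice, a replicate block, a stricter threshold and leaving out arrays. No set test was run.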

Additional observations from a re-analysis of the deposited data

How the results depend on the processing

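The count of 15 risen members stayed within 1.5 times under most alternatives and became 23 with array weights, 9 with probe sets averaged per gene, 9 with _x_at and _s_at probe sets left out (which left 37 members tested) and 8 at a threshold of 0.01. With the replicate block it was 26. Same-numbered arrays deviated from their group means with correlations of 0.16, 0.08 and 0.27 across genes. Each array labelled RNF43 siRNA matched its own number best, as did control arrays 1 and 3. Control array 2 matched array 1 labelled RNF43 siRNA slightly better (0.0859 against 0.0772). The labels do not say that the numbers mark pairs, so the numbers were not taken as pairs in the main fit. The count of 2 fallen members was 2 in every alternative fit, and the median log2 difference of the members stayed within the spread between arrays. The RNF43 difference was 0.48 without both arrays numbered 3. Among called genes that were named, REV3L changed sign, at -0.02 with those probe sets left out. Of the 17 called members, 7 kept their call in every alternative that tested them and 10 lost it in at least 1. Among the 7, GMNN, MCM7 and CDC45 have only probe sets ending in _s_at. The fit without such probe sets did not test them. Of the 32 members not called, 12 gained a call in at least 1 alternative, and 6 changed sign without being called. Small differences near the threshold are limited by 3 arrays per group.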

Other observations

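Of the 32 members not called, 26 had positive differences, against 5870 of all 11853 genes tested, called or not. Of those 26, 7 had an adjusted p (limma) between 0.05 and 0.1, namely RRM1, RPA2, GINS3, POLE2, POLE3, RFC4 and DBF4. Taken array by array, the median over the 49 members relative to each gene's control mean was -0.02, -0.03 and 0.06 on control arrays 1, 2 and 3 and 0.15, 0.17 and 0.23 on the arrays labelled RNF43 siRNA. The array numbered 3 was the highest in each group. On control array 3, 36 of the 49 genes lay above their control mean, against 18 and 15 on control arrays 1 and 2 and 38, 40 and 40 on the labelled arrays.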
